A study of Mus musculus with 117 samples.

Results

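The acute phase protein genes code for plasma proteins that the liver secretes in changed amounts during inflammation. The 10 genes examined here were chosen by name, out of 21627 protein-coding genes on the autosomes and chromosome X. They are 4 serum amyloid A genes (Saa1, Saa2, Saa3 and Saa4), 3 genes of alpha-1-acid glycoprotein, also called orosomucoid (Orm1, Orm2 and Orm3), the haptoglobin gene (Hp), and 2 pentraxin genes, Crp for C-reactive protein and Apcs for serum amyloid P component. Each gene's span was widened by 2 kb on both sides and cut into bins of 200 bp, which gave 379 bins in all. Orm2 and Orm3 shared 6 of these bins, and no other pair shared any.

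In an acute phase response, cytokines such as interleukin 6 and interleukin 1 act on hepatocytes, the liver's most abundant cells, and transcription factors of the STAT, C/EBP and NF-kB families raise transcription of these genes. Serum amyloid A proteins travel on high-density lipoprotein, haptoglobin binds free haemoglobin, and the pentraxins bind microbial surfaces and debris. In the mouse, Saa1, Saa2 and Apcs are strongly induced, Saa4 is made by the liver without induction, Saa3 is also made by macrophages and fat cells, and Crp is only a minor responder.

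Chromatin immunoprecipitation sequencing was carried out on hepatocytes of female mice aged 12 weeks. The labels name 9 inbred strains and no treatment. In this text CAST/EiJ, PWK/PhJ and WSB/EiJ are called wild-derived, from general knowledge of their origin, and DBA/2J, A/J, NZO/HlLtJ, C57BL/6J, NOD/ShiLtJ and 129S1/SvImJ laboratory strains. Each strain had 13 libraries: 4 histone marks (H3K4me1, H3K4me3, H3K27ac and H3K27me3) in each of 3 mice, and 1 input library without antibody. The deposited segmentation of each strain combines its mice and gives every bin 1 of 14 numbered chromatin states, so a strain is 1 value and every SD below is over the 9 strains. The mark content of the states is not given in the sources used here, so a state number is only a name, and the sequencing depth behind each value is unknown.

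What kind of gene carries each state was read from the files. State 3 covered 0.389% of the genome but 39.03% ± 1.11 of the bins that hold a protein-coding gene's start (17273 genes with a known start). The share of a gene's bins in states 1 to 3 had a median of 86.0% over 20 hepatocyte marker genes, 34.3% over 20 widely expressed genes and 0% over 20 regulators of embryonic development. It was 0% over 11 Kupffer cell or leukocyte genes, 8.08% over 7 endothelial genes, 0% over 6 stellate cell genes and 0.115% over 6 bile duct genes. By these medians over whole padded spans the markers of the labelled cell type stood highest. Single genes departed from them: the highest Kupffer cell or leukocyte gene had 64.8% and the highest endothelial gene 53.3%. The lowest hepatocyte marker had 39.8%. The same markers served to read the states, so this is no separate check of the cell type. Within 1 kb of the start, the median share was 100% in both the hepatocyte markers and the widely expressed genes (15 with a known start in each list). The share over a span also depends on how far states 1 to 3 reach along the gene, and gene length was not matched. State 14 covered most of the genome, and 92.6% of the span of the olfactory receptor gene Olfr16, beside the pentraxin genes.

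The promoters of 8 of the 10 genes were found in the RefSeq table of build GRCm38.p6, each running from 250 bases before the start to 50 after it. Those of Saa1 (chr7:46742931-46743230, minus strand) and Saa2 (chr7:46751583-46751882, plus strand) are shown because they were 95.3% identical while the chromatin around them differed. Those of Orm3 (chr4:63355908-63356207, plus strand) and Orm2 (chr4:63362199-63362498, plus strand), 86.6% identical, are shown for the same reason. Saa3 (chr7:46715627-46715926, minus strand) is shown as the gene whose start lay outside states 1 to 3, and Crp (chr1:172697806-172698105, plus strand) as the most constant gene between strains. Capitals mark matches to the C/EBP motif TTGCNNAA or the TATA box TATAAA, searched on both strands.
Saa1: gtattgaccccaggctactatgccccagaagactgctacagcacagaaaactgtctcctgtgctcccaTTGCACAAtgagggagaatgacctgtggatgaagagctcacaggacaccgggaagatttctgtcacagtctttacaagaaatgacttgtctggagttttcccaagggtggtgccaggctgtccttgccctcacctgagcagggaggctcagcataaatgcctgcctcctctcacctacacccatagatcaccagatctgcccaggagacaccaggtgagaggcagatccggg
Saa2: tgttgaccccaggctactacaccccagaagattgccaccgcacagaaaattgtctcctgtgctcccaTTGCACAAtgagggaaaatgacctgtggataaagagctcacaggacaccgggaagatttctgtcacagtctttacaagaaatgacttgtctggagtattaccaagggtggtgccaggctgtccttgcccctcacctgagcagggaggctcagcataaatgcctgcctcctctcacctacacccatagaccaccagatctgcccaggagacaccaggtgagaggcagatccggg
Orm3: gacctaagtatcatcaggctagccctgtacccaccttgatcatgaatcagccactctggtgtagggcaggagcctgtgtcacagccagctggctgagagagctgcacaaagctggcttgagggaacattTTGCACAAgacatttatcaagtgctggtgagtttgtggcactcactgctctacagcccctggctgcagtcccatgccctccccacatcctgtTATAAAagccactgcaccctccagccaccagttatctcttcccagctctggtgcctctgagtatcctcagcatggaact
Orm2: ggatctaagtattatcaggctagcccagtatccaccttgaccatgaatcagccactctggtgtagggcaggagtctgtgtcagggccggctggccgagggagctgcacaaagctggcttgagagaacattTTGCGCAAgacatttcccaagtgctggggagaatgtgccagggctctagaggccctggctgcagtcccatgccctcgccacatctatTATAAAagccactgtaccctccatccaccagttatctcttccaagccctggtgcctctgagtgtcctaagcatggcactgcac
Saa3: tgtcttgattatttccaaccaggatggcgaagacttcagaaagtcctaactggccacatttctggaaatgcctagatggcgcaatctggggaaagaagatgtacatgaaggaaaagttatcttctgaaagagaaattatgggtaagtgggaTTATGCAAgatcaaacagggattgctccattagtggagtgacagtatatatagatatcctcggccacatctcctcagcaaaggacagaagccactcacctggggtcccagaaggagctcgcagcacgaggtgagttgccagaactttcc
Crp: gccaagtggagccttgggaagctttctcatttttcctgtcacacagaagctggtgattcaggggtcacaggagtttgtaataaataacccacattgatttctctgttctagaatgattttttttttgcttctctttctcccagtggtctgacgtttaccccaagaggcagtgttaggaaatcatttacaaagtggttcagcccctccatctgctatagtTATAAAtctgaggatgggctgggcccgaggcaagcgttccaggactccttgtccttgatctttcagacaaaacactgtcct

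The C/EBP motif was present in 6 of the 8 promoters, against 10.3% of 17273 promoters of the same length. In Saa1 it read TTGCACAA and lay at -182 to -175, where position -1 is the base before the start, and in Saa2 the same letters lay at -183 to -176. Saa3 carried TTATGCAA nearer to its start, at -99 to -92. Orm3 carried TTGCACAA at -121 to -114, and Orm2 carried TTGCGCAA at -120 to -113. Saa4 held 2 matches, and Crp and Apcs held none. The TATA box was found in Orm2, Orm3 and Crp (13.4% of all promoters), at -33 to -28, -29 to -24 and -31 to -26. The STAT motif TTCNNNGAA was found in Apcs alone, as TTCTAGGAA (7.92% of all promoters), and the NF-kB consensus in none of the 8 (4.65%). The motifs do not overlap one another in these promoters. The 8 promoters held 0 to 5 CG pairs each, against a median of 14 over all promoters. The motif shares over all promoters were not matched for this. Saa1 with Saa2 (95.3% identical) and Orm2 with Orm3 (86.6%) are related pairs, so the 8 promoters are not independent.

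All 10 genes had a larger share of their bins in states 1 to 3 than the median protein-coding gene, at 5.14%. The median over the 10 genes was 89.2%, and 8 of them averaged at least 50%, a level that 8.54% of all genes reached. The 10 genes span 1094 to 7618 bp, and the comparison with all genes was not matched for gene length. Hp stood highest, at 98.6% ± 1.77 (SD, n = 9). Orm3 followed at 96.2% ± 5.11, Orm1 at 95.7% ± 3.39, Crp at 95.2% ± 3.77, Saa1 at 89.9% ± 12.0, Apcs at 88.5% ± 6.79 and Orm2 at 83.3% ± 11.2. Saa4 had 76.0% ± 11.9, and the lowest were Saa3 at 46.7% ± 3.54 and Saa2 at 26.6% ± 6.02.

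**Figure D1:**
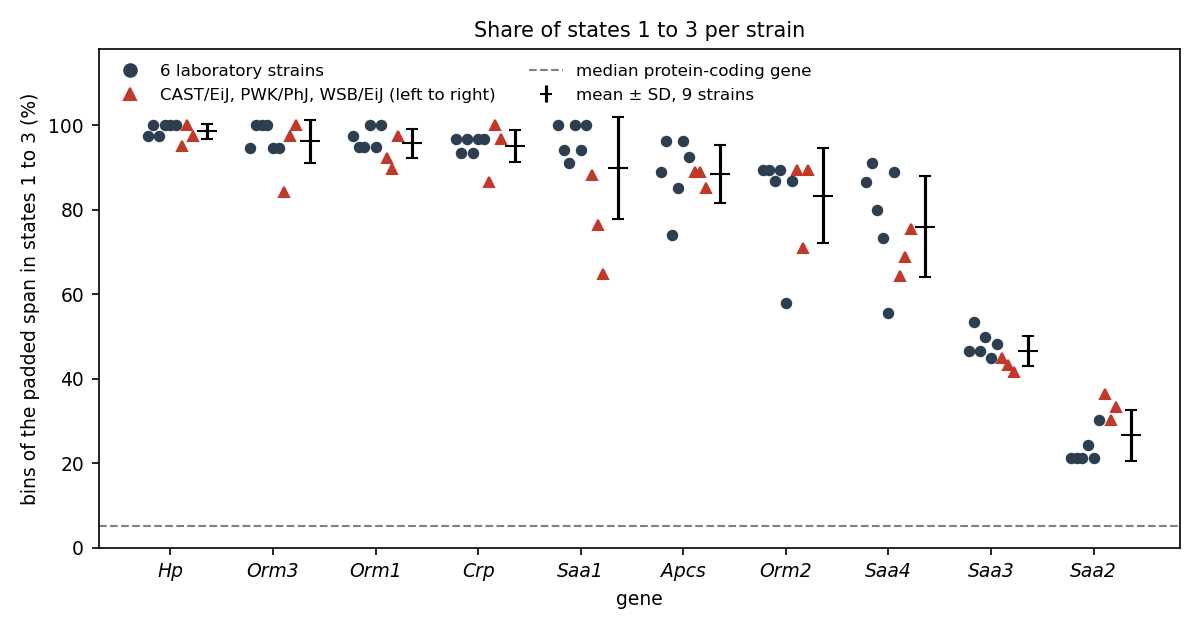
Share of the bins of each gene's padded span in states 1 to 3 (vertical axis, percent) for the 10 genes (horizontal axis), 1 point per strain, with the mean and SD over 9 strains beside the points and a dashed line at the median protein-coding gene (5.14%). Saa3 and Saa2 sit below 60% in every strain, and all genes sit above the dashed line in every strain.

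Within strains, 34 of the 45 gene pairs differed at an adjusted p under 0.05 (sign-flip permutation test, exact and two-sided, with 9 strains and Benjamini-Hochberg adjustment over 45 pairs). In the order of the means, the first 7 genes, from Hp to Orm2, did not differ from their neighbours beyond the spread (adjusted exact p from 0.11 to 0.88). Orm2 exceeded Saa4 by 7.28 percentage points ± 9.18 in 7 of 9 strains (adjusted exact p = 0.0385). Saa4 exceeded Saa3 by 29.4 points ± 10.3, and Saa3 exceeded Saa2 by 20.1 points ± 8.45, each in 9 of 9 strains (adjusted exact p = 0.00732 for both). The raw p behind the last 2 values, 0.0039, is the smallest that 9 strains allow. The strains share ancestry, so these p-values describe the spread between these 9 segmentations. On spans without padding, 16 of the 45 pairs differed. No rate for pairs of other genes was set beside these counts, so they are not read as particular to the members.

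Saa1 and Saa2, the major inducible serum amyloid A genes, lie next to each other on chromosome 7 in opposite directions. Saa1 (chr7:46740497-46743181) had most of its bins in state 2, 60.8% ± 10.8, with 28.8% ± 9.39 in state 1 and 10.1% ± 12.0 in state 4. Saa2 (chr7:46751833-46754313) had 64.0% ± 12.0 in state 4, with 16.2% ± 3.71 in state 2 and 10.4% ± 4.04 in state 1. In states 1 to 3, Saa1 exceeded Saa2 by 63.3 percentage points ± 16.2, in 9 of 9 strains (adjusted exact sign-flip p = 0.00732). The share of Saa2 was 21.2% in 129S1/SvImJ, A/J, C57BL/6J and NOD/ShiLtJ, 24.2% in DBA/2J, 30.3% in NZO/HlLtJ and PWK/PhJ, 33.3% in WSB/EiJ and 36.4% in CAST/EiJ. With state 4 counted too, the mean of Saa2 was 90.6%, so the 2 genes differed mainly in which of these states they carried. The start of Saa1 was in state 1 in 9 of 9 strains, and that of Saa2 was in state 1 in 6 and in state 2 in 3. Within 1 kb of the Saa2 start, 78.8% ± 16.4 of the bins were in states 1 to 3, and the rest of its span was largely in state 4. How reads that match both of these near-identical genes were placed is not given in the sources used here, so each gene's values are uncertain to that extent.

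Saa4, the constitutive serum amyloid A gene (chr7:46727992-46732603), had 54.1% ± 5.33 of its bins in state 1 and 9.14% ± 4.51 in state 3. Its start was in state 1 in 9 of 9 strains, with state 3 within 1 kb in all 9. State 3 lay on one or both sides of the start bin and not in it. Saa3 (chr7:46711998-46719615) had the widest mixture, with 28.3% ± 6.01 of its bins in state 14, 25.6% ± 6.51 in state 2, 17.0% ± 4.23 in state 1 and 14.1% ± 6.51 in state 4. Its start was in state 4 in 4 strains and in state 14 in 5. In the kilobase to either side of it, 8.08% ± 8.44 of the bins were in states 1 to 3, and state 3 was absent in all 9 strains. The annotated span of Saa3 reaches 3939 bp further upstream, and at that outer end the bin was in state 3 in 4 strains, state 1 in 4 and state 2 in 1. All bins within 1 kb of the outer end were in states 1 to 3 in every strain. The annotated start of the predicted gene Gm31882, on the other strand, also lies inside this upstream part. On the other side, the padding of Saa3 reaches into the gene Saal1, 1308 bp away, so the outermost bins there lie in Saal1.

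**Figure D2:**
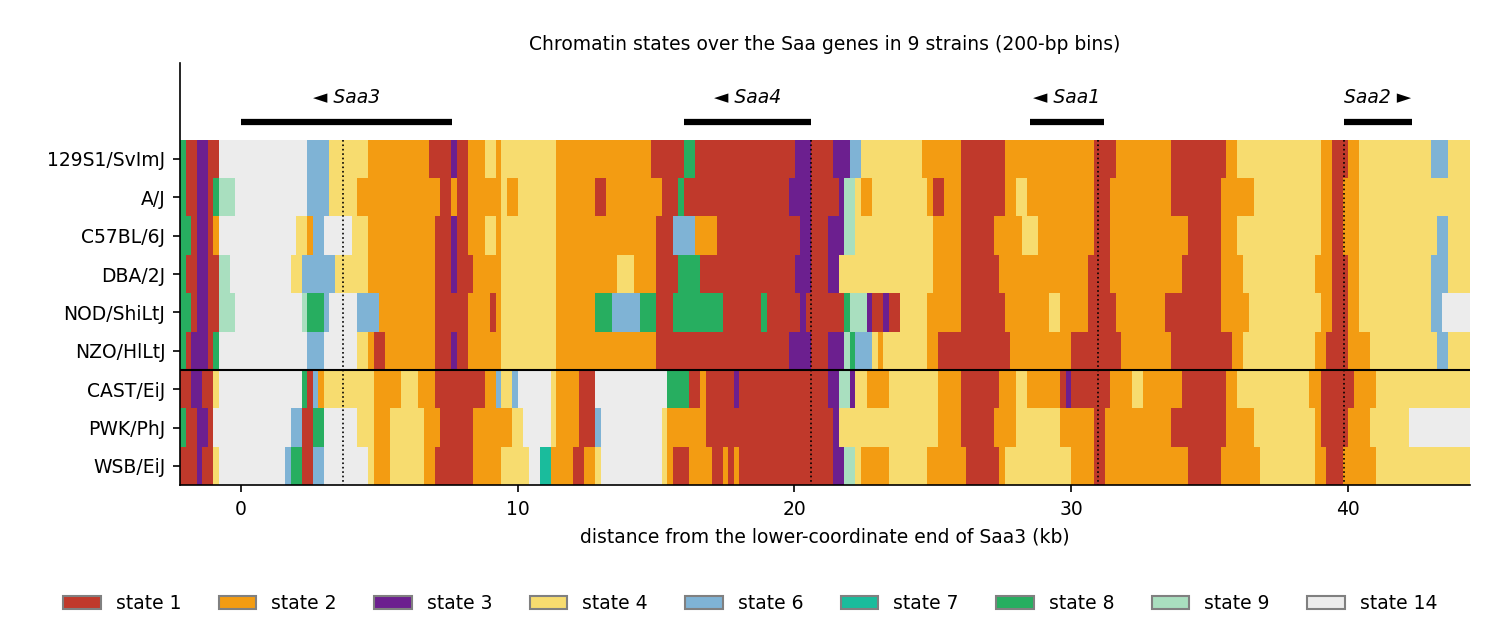
Chromatin state of each 200-bp bin (colour) across the Saa genes in each strain (rows, the 3 wild-derived strains below the black line), against distance from the lower-coordinate end of Saa3 in kb; black bars are genes and dotted lines their starts. Saa2 is mostly in state 4, the Saa3 start lies in state 4 or 14, and the 3 lower rows carry state 14 beside Saa4 where most upper rows carry state 2.

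The 3 Orm genes lie together on chromosome 4, in a stretch of 25600 bp with the padding. Orm1 (chr4:63344556-63348163) had 77.2% ± 12.3 of its bins in state 1 and Orm3 (chr4:63356069-63359506) had 66.7% ± 16.6. Orm2 (chr4:63362449-63365877) had 15.8% ± 13.4 in state 1 and 67.5% ± 14.3 in state 2. Orm3 exceeded Orm2 in state 1 in 9 of 9 strains, and the difference, Orm2 minus Orm3, was -50.9 percentage points ± 18.4 (adjusted exact sign-flip p = 0.00586 over 45 pairs; state 1 alone was examined after the data had been seen). The start of Orm3 was in state 1 in 9 of 9 strains, and that of Orm2 was in state 2 in 7 strains and state 1 in 2, CAST/EiJ and NZO/HlLtJ. State 3 lay within 1 kb of neither start in any strain. At the lower-coordinate end of Orm1, the bin was in state 3 in 8 of 9 strains and in state 1 in PWK/PhJ. The start of the predicted gene Gm52743 also lies near that end of Orm1. Reads that match more than one of these related genes carry the same uncertainty as in Saa1 and Saa2.

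Hp (chr8:109575128-109579172), whose product clears free haemoglobin, was in state 1 over 81.0% ± 12.4 of its bins. A stretch of 3600 bp, chr8:109573801-109577400, was in state 1 in all 9 strains. At the higher-coordinate end of the gene, the bin was in state 3 in 6 strains and in state 1 in A/J, NOD/ShiLtJ and WSB/EiJ. Crp (chr1:172698056-172699966) had 65.6% ± 5.53 of its bins in state 1 and 19.6% ± 3.89 in state 3. Its start was in state 1 in 9 of 9 strains, and state 3 followed it inside the gene, where chr1:172698401-172699200 was in state 3 in all 9. Apcs (chr1:172893961-172895054), the other pentraxin, had 76.1% ± 8.51 in state 1 and 8.23% ± 4.82 in state 3. Its start was in state 3 in 8 of 9 strains and in state 1 in CAST/EiJ.

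**Figure D3:**
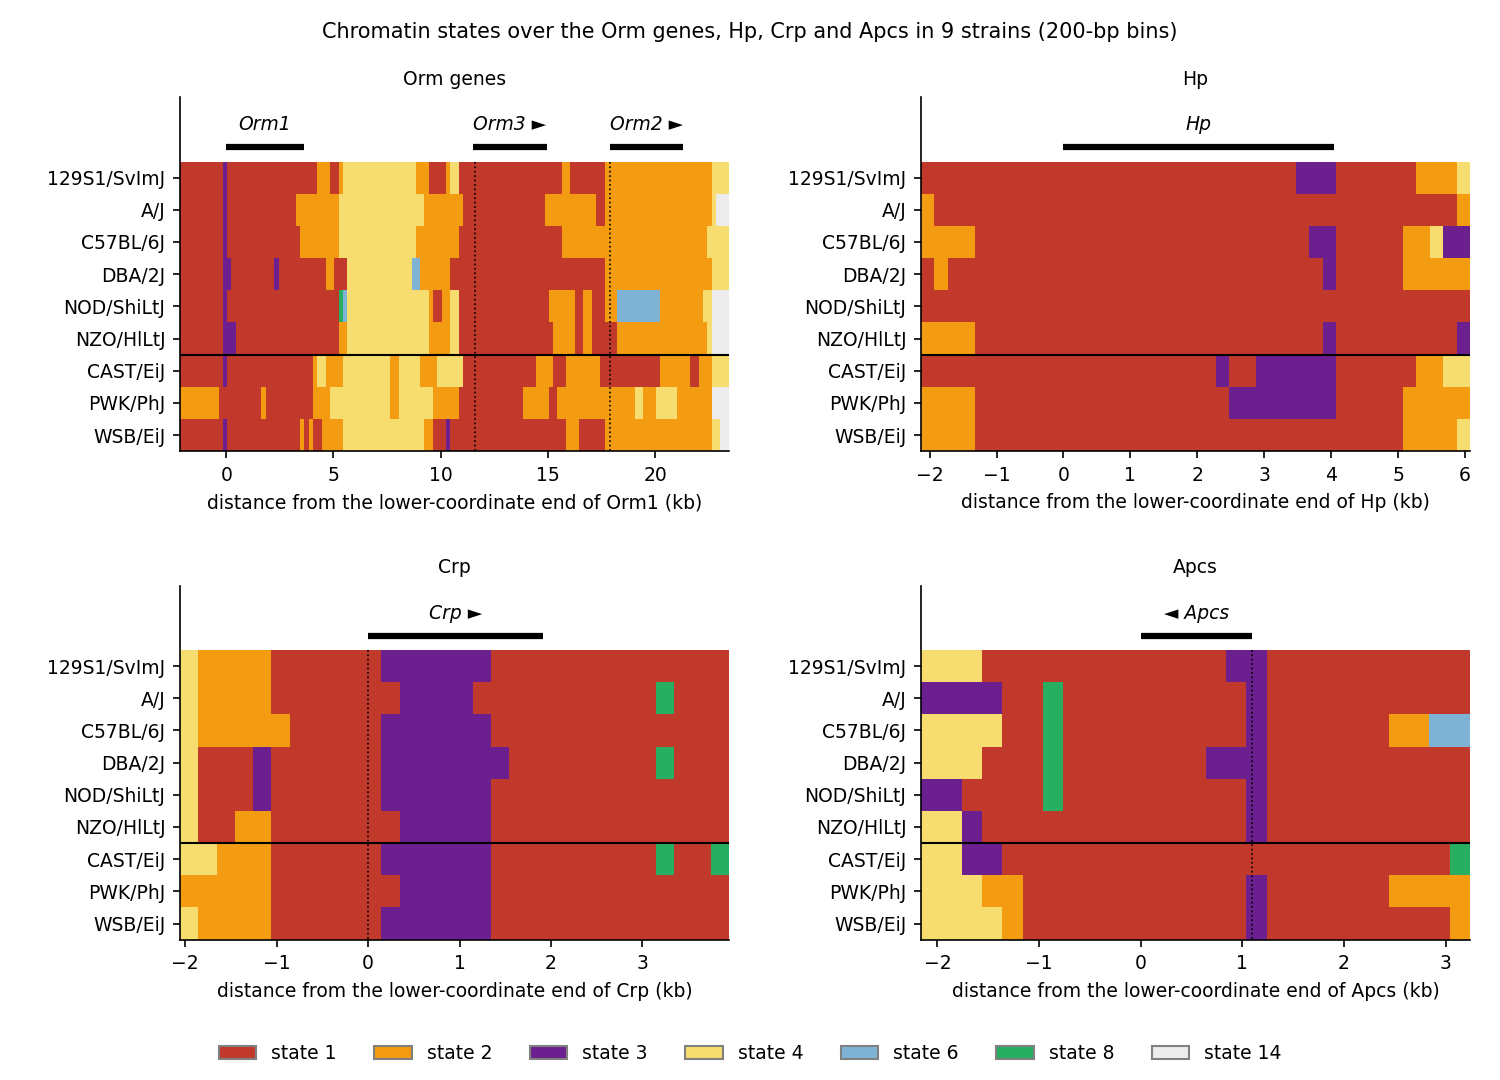
Chromatin state of each 200-bp bin (colour) over the Orm genes, Hp, Crp and Apcs in each strain (rows, wild-derived strains below the black line), against distance in kb from the lower-coordinate end of the first gene in each panel. State 1 fills most of Hp, Crp and Apcs, state 2 fills most of Orm2, and state 3 forms a block inside Crp in all 9 strains.

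The starts were then set against those of all protein-coding genes. Of the 8 members with a known start, 7 had it in states 1 to 3 in all 9 strains, against 43.1% of the 17273 genes, and Saa3 was the exception. None was in state 13 or 14 in all 9 strains, against 30.1% of genes. The start bin was in a single state in all 9 strains for Saa1, Saa4, Orm3 and Crp, 4 of the 8, against 56.8% of genes. State 3 lay within 1 kb of the start in all 9 strains for Saa4 and Crp, 2 of the 8, against 41.2% of genes. It was absent in all 9 for Saa2, Saa3, Orm2 and Orm3, 4 of the 8, against 47.1%. Saa1 had it in 1 strain, CAST/EiJ, and Apcs in 8. Over the 8 members, state 3 filled 10.98% ± 2.84 of the bins within 1 kb of the start, while state 1 filled 49.4% ± 6.56. The corresponding values over 16 other plasma proteins that rise in the response were 34.0% ± 3.61 and 61.0% ± 4.63.

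The 9 strains disagreed at many bins of these genes. Averaged over the 36 strain pairs, 28.8% of the 379 bins differed in state, against 17.4% over the spans of all protein-coding genes. All 9 strains had the same state in 140 of the 379 bins. By gene, the mean share of differing bins was 43.3% in Saa4, 37.4% in Orm2, 34.3% in Saa3, 29.2% in Orm3, 28.2% in Saa1, 25.4% in Saa2, 25.1% in Orm1, 21.7% in Apcs, 21.6% in Hp and 13.4% in Crp. These values exceeded the gene median of 19.7% in 9 of the 10 genes. Among the 1848 genes with at least 50% of their bins in states 1 to 3, however, the median was 28.6%, and 3 of the 8 members in that set lay above it. Counting only bins outside state 14 in at least 1 strain likewise put 3 of the 10 members above the gene median, which was then 34.5%. Without padding, 4 of the 10 lay above the gene median.

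**Figure D4:**
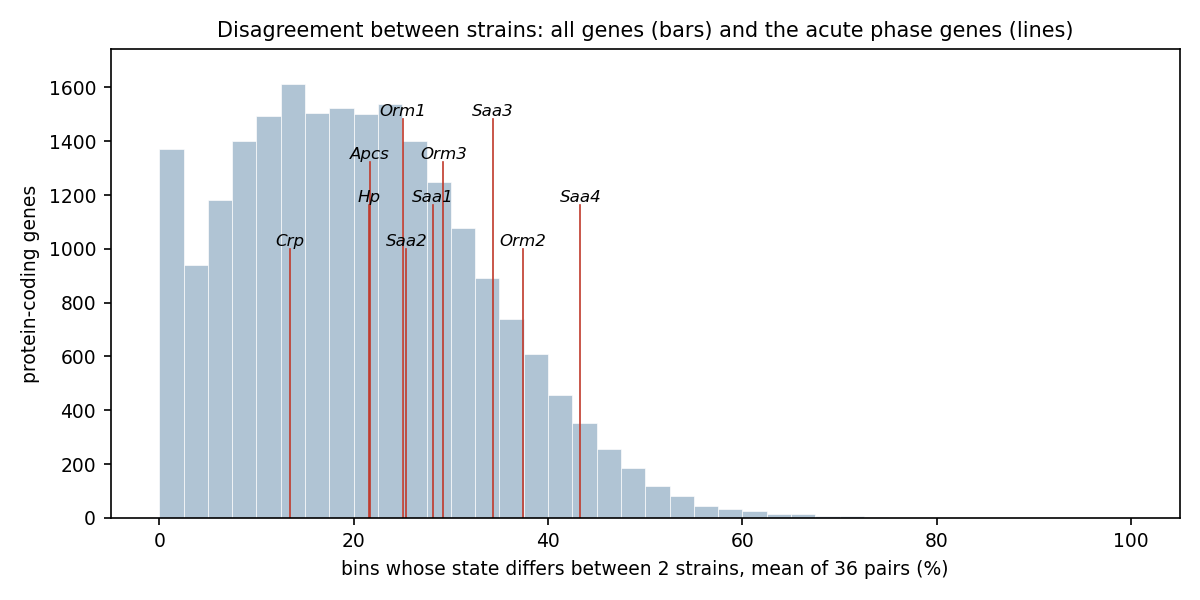
Number of protein-coding genes (bars, vertical axis) by the share of bins whose state differs between a pair of strains, averaged over 36 pairs (horizontal axis, percent), with a red line at each acute phase gene. Crp, at 13.4%, is the only member below the gene median of 19.7%, and Saa4, at 43.3%, is the farthest to the right.

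The states exchanged most often between strains in the 10 genes were states 1 and 2, with 35.5% of the disagreement. Exchanges between states 2 and 4 made up 16.9%, and those between states 1 and 3 10.2%. Exchanges between states 4 and 14 made up 8.14%. Stretches without any disagreement lay both inside and between the genes. In the Saa cluster, chr7:46738201-46739200, between Saa4 and Saa1, and chr7:46746201-46747400, between Saa1 and Saa2, were in state 1 in all 9 strains. In the Orm cluster the longest such stretch, chr4:63355601-63358400, was in state 1 and covered the start of Orm3.

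The 3 wild-derived strains were compared with the 6 laboratory strains. Saa1 had 88.2% of its bins in states 1 to 3 in CAST/EiJ, 76.5% in PWK/PhJ and 64.7% in WSB/EiJ. In the laboratory strains it had 100% in 129S1/SvImJ, DBA/2J and NZO/HlLtJ, 94.1% in A/J and NOD/ShiLtJ, and 91.2% in C57BL/6J. The groups did not overlap, with means of 76.5% ± 11.8 (n = 3) and 96.6% ± 3.91 (n = 6), and the bins that left states 1 to 3 were in state 4. Wild-derived strains lay below all laboratory strains in this share in 1.11% of genes and above them in 0.777%. The exact permutation p was 0.0119, the smallest that 84 splits allow, and the adjusted p over all genes was 0.6. No other member separated the groups in this share, and no member did so without padding or with bins of 1000 bp. Among the 15118 genes whose share varied, none passed the adjusted threshold in this exact permutation test, and 973 had an unadjusted p under 0.05. With 84 splits, a gene could pass adjustment over this many genes only if a large part of them reached the smallest p. The adjusted p-values of this test, here and below, were therefore nearly fixed in advance, and nothing is concluded from them.

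The share of bins outside state 14 separated the groups in Saa4. It was 100% in all 6 laboratory strains, against 82.2% in CAST/EiJ and 84.4% in PWK/PhJ and WSB/EiJ (exact permutation p = 0.0119, adjusted p = 0.467). Across genes, wild-derived strains lay lower in this share in 2.76% and higher in 0.559%. State 1 alone, examined after the data had been seen, was higher in the wild-derived strains in Saa3, with means of 21.7% ± 2.89 and 14.7% ± 2.45 (exact permutation p = 0.0119, adjusted p = 0.499), a direction that 0.633% of genes showed. In the other 7 genes the groups overlapped in all 3 of these shares.

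The state 14 bins of the wild-derived strains at Saa4 lay beyond its 3′ end. Over chr7:46724801-46727600, a stretch of 2800 bp between Saa3 and Saa4, no wild-derived strain shared a state with any laboratory strain at any of the 14 bins. CAST/EiJ had state 14 in 13 of these bins, and PWK/PhJ and WSB/EiJ in 11 each. The laboratory strains had state 14 in none of them. States 1 and 2 filled all 14 bins in 129S1/SvImJ, A/J, C57BL/6J and NZO/HlLtJ and 11 in DBA/2J, while NOD/ShiLtJ had state 1 in 3, state 6 in 5 and state 8 in 6. In PWK/PhJ and WSB/EiJ the run of state 14 had the same bounds, chr7:46725001-46727200. Around it, chr7:46723401-46724000 was in state 2 in all 9 strains. The stretch was singled out after its values were seen.

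Over the whole Saa cluster, 27 of 233 bins, 11.6%, had no state in common between wild-derived and laboratory strains. Of the marked bins of the genome, those outside state 14 in at least 1 strain, 0.685% had this property. The 233 bins also include bins in state 14 in all strains, so the 2 shares have unlike bases. Of the 27 bins, 14 form the single stretch described above. By gene, Saa4 had 10 such bins and Saa3 7, Apcs had 1, and Saa1, Saa2, the Orm genes, Hp and Crp had none. A count of at least 10 in the padded span was found in 494 genes, 2.28%, but longer genes have more bins to count. As a share of the gene's bins, Saa4 had 22.2%, at percentile 99.9 among genes. Saa3 had 11.7%, at percentile 99.6, and Apcs 3.70%, at percentile 96.9. How the reads of strains that differ from the reference sequence were aligned is not given in the sources used here, and its part in these values was not tested.

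PWK/PhJ differed most from the other 8 strains over the 379 bins, in 36.7% of them on average, followed by CAST/EiJ at 33.9% and NOD/ShiLtJ at 31.7%. The other 6 strains lay between 24.1% and 28.9%. Over the spans of all protein-coding genes, PWK/PhJ was again the highest, at 20.5%. PWK/PhJ alone carried a state that none of the others had, where those 8 agreed, in 26 bins, and CAST/EiJ in 12, while each of the others had 1 to 4. The strain that stood out depended on the gene. It was NOD/ShiLtJ in Saa4, at 55.8%, where state 8 filled 31.1% of the bins. It was CAST/EiJ in Orm2, at 56.9%, where state 1 filled 42.1% of the bins, the highest share of that state in Orm2. In NOD/ShiLtJ, Orm2 held 26.3% of its bins in state 6, which no other strain had there, and its share of states 1 to 3 was the lowest, at 57.9%.

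**Figure D5:**
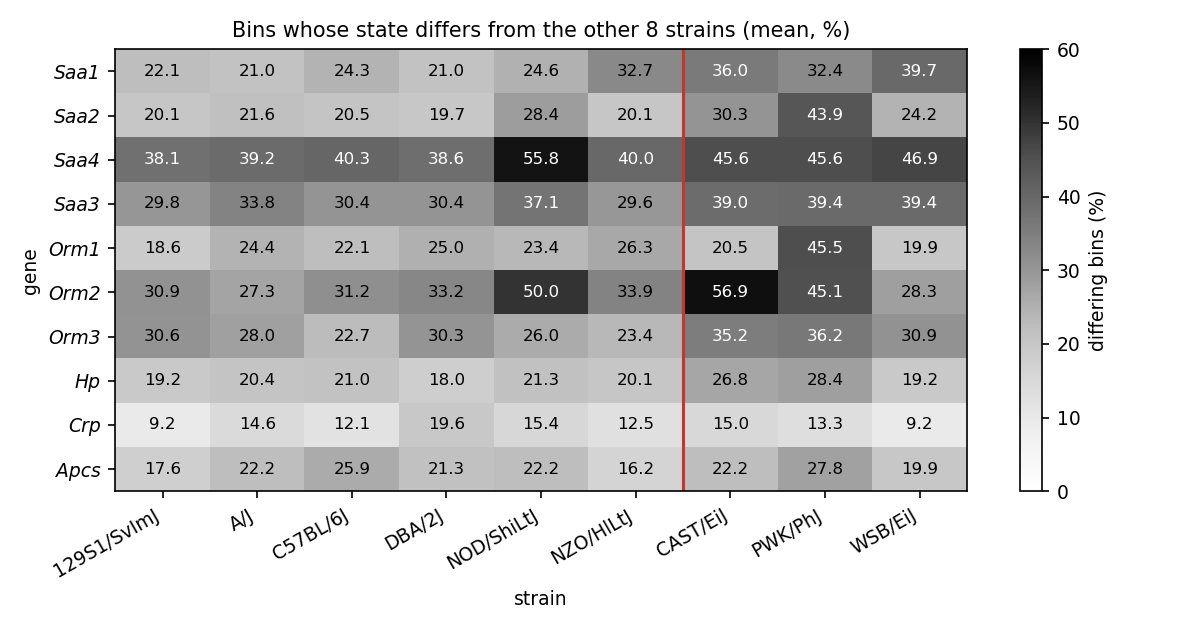
Share of each gene's bins whose state differs from the other 8 strains, averaged over those strains (percent, printed in each cell and shaded), for 10 genes (rows) and 9 strains (columns, wild-derived strains right of the red line). The highest cells are Orm2 in CAST/EiJ (56.9%) and Saa4 in NOD/ShiLtJ (55.8%), and the row of Crp is the lightest.

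The genes of the pathway were examined next. Of 21 regulators of the response (receptors, kinases and transcription factors), 17 had a known start, and all 17 had it in states 1 to 3 in all 9 strains, against 43.1% of all genes with a start. State 3 lay within 1 kb of it in all 9 strains in 14, against 41.2%. Of the widely expressed genes, 15 had a known start, and 13 met each of these 2 criteria. The median share of states 1 to 3 over the 21 genes was 46.7%. It was 65.4% ± 1.35 in Il6ra, the interleukin 6 receptor, 56.3% ± 6.97 in Stat3, which carries its signal, and 81.5% ± 1.98 in Socs3, its feedback inhibitor. Cebpa and Cebpb, which code for C/EBP factors, had 100% in all 9 strains. Between strains, Cebpb disagreed least of the 21, at 4.98% of bins, and Il1rap, the accessory chain of the interleukin 1 receptor, most, at 39.1%.

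Over 20 other plasma proteins that rise in the response, the median share of states 1 to 3 was 89.9%. It ranged from 0.141% in A2m, alpha-2-macroglobulin, to 100% in Lrg1. The list came from general knowledge, and whether each of its genes, A2m included, rises in mouse liver was not tested. The fibrinogen chain genes Fga, Fgb and Fgg had 99.2% ± 1.23, 98.9% ± 2.24 and 95.0% ± 3.16. Lrg1 also disagreed least between strains, at 5.64%, and Lcn2, an iron-siderophore binding protein, most, at 56.2%. Over 8 plasma proteins that fall in the response, the median was 79.7%, with the lowest disagreement in Rbp4, the retinol carrier, at 7.73%, and the highest in Serpina6, corticosteroid-binding globulin, at 37.1%. In these 3 lists, only Fetub, which codes for fetuin-B, separated wild-derived from laboratory strains in states 1 to 3, with the wild-derived strains higher. Over all genes, 0.777% separated in that direction and 1.11% in the other, so 1 such gene is not read as a trait of these lists.

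The genes beside the 4 loci carried less of states 1 to 3 in most cases. Saal1 and Hps5, beside the Saa cluster, had 3.78% ± 0.366 and 12.3% ± 1.96. Col27a1 and Akna, beside the Orm cluster, had 18.1% ± 2.10 and 5.12% ± 0.995. Txnl4b, beside Hp, had 68.8% ± 5.87, and Dhodh on the other side had 14.6% ± 2.93. Saal1, Akna and Txnl4b lay 1308, 1246 and 1077 bp from the nearest member, so the padded spans of all 3 ran into that member's. Dusp23 and Olfr16, beside the pentraxin genes, had 45.1% ± 5.21 and 0%. The members and the genes beside them were not matched for length either.

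By state composition, averaged over the 9 strains, the nearest genes more than 1 Mb away were Cxcr1 and Amdhd1 for Saa1, Gm19774 and Ren1 for Saa2, Derl2 and Spata2l for Saa4, and Maco1 and Tspan14 for Saa3. They included Tmem86b for Orm1, and were Zcchc24 and Plg for Orm2, and Plin5 and Sdr42e1 for Orm3. For Hp they were Nr1i3 and Slc25a44, for Crp Ndrg2 and Eif1, and they included Cpn2 for Apcs. The distance, the share of bins that would have to change state for the compositions to be equal, ran from 8.70% for Cpn2 to 23.9% for Plg. Orm2 had no neighbour as close as those of the other genes: its nearest, Zcchc24, lay at 23.5%.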

How the data were processed

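Chromatin states came from 9 deposited segmentations, 1 per strain, each of which combines that strain's 13 libraries. The deposited values are categories, the state number of each interval, and not a count, signal or score. The submitters' processing notes name build mm10, FastQC 0.11.5 and MACS 1.4.2, with no role for either tool. The aligner, the segmentation tool and the read depth are not given in the sources used here. A file of all strains equals the strain files laid end to end and was not used.

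Intervals were written as 200-bp bins. Gene spans and starts came from RefSeq tables of GRCm38.p6, the same assembly as mm10. Gene pairs were compared with an exact sign-flip permutation test over strains, and wild-derived with laboratory strains with an exact permutation test over all genes, with Benjamini-Hochberg adjustment. Disagreement is the share of bins that differ, averaged over strain pairs. Promoters were aligned globally with Biopython. Alternatives covered the set of states, the padding, the bin size, a match within 1 bin, marked bins alone and each strain left out. The code, in Python 3.11.15 with numpy 2.4.6 and pandas 2.3.3, was tested on simulated data.

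The members, the gene lists, the grouping of states 1 to 3 and the tests were chosen with earlier results of these data known. Besides the members, the genes named are the 2 nearest in composition to each, the neighbours of each locus and, in each of 10 lists, the genes with the least and most disagreement, given for the 3 lists of the response. The other genes that this rule names are not reported here. Il6ra, Stat3, Socs3, Cebpa, A2m, Fga, Fgb, Fgg, Fetub, Gm31882 and Gm52743 fall outside this rule and were chosen after their values were seen.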

Additional observations from a re-analysis of the deposited data

Results flagged for a closer look

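Of 30 sets of 9 strains (10 genes by 3 shares), 8 held a strain whose gap to the nearest other was above the 95% limit of Dixon's test. That limit assumes independent, normally distributed values. These are coarse shares, many at or near 100%, so no chance rate can be given. No share of flagged sets over all genes was set beside this count, so it is not read as a trait of these genes. In Saa1, Orm1, Orm3, Hp, Crp and Apcs, the share outside state 14 was 100% in every strain and could not be flagged. In PWK/PhJ, Saa2 had 66.7% of its bins outside state 14, against 84.8% or more in the other strains, because state 14 filled the 3′ part of its padded span. The same span differed from the other 8 strains in 43.9% of bins, and that of Orm1 differed in 45.5%. In NOD/ShiLtJ, Saa4 differed from the other strains in 55.8% of bins. CAST/EiJ had the lowest share of states 1 to 3 in Orm3 at 84.2%, in Hp at 95.1% and in Crp at 86.7%. C57BL/6J had the lowest share in Apcs, at 74.1%. With 27 to 45 bins in these spans, a few bins make up each gap, and no replicate within a strain was available to set beside it.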

How the results depend on the processing

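The median share of states 1 to 3 over the 10 genes, 89.2%, became 97.8% with state 4 added, 65.1% with states 1 and 3 only, 95.3% without padding and 69.6% with padding of 5 kb. Of the 45 gene pairs, 34 differed, and 16 did without padding, where spans hold fewer bins, and 9 for the share outside state 14. The 1 gene whose wild-derived and laboratory strains did not overlap became 0 without padding and with 1000-bp bins, and 2 with padding of 5 kb. With each strain left out in turn it ranged from 1 to 2. The 9 genes above the median disagreement became 4 without padding and 3 in marked bins only. The cause of these changes was not tested. Of 290 values for single genes under an alternative, 51 moved by more than the spread between strains. The lowest share was 10.4%, for Saa2 with states 1 and 3 only. No paired analysis was possible because the segmentations combine the mice of a strain, so the mouse numbers in the labels carry no values. The depth per strain is unknown, so no limit from depth can be given. With 1 segmentation per strain, differences between strains include whatever differed between their libraries.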
